A study of Homo sapiens with 3 samples.

Results

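Cytochrome c oxidase assembly factors are described here through 9 genes, SCO1, SCO2, SURF1, COX10, COX11, COX14, COX15, COX17 and COX20, out of 63241 genes in a ribosome profiling (Ribo-seq) count table. They were taken by gene symbol, with earlier results of these data known. All 9 passed the filter on low counts, which left 19820 genes for testing. Ribo-seq counts the mRNA fragments (footprints) that ribosomes shield from nuclease, so a gene's footprints depend on both its mRNA amount and its ribosome occupancy, which cannot be told apart here, nor can a change in every cell from a change in some of them. The cells were HEK293T, a human embryonic kidney line whose SV40 large T antigen is known to bind p53, and each group expressed a p53 construct, wild-type (WT), G245S or R273H, the latter 2 being hotspot changes in the DNA-binding domain. The study's methods describe stable lines made with lentivirus and kept in puromycin, while the labels also call the expression transient and give the mutants a treatment that names the wild-type construct, so groups were taken from the titles. The study's p53 plasmids carried a CMV promoter, while the promoter of the lentiviral construct and whether a line is 1 clone are not given in the sources used here, and no group without a construct was analysed here. Each group was 3 culture dishes treated with cycloheximide, and its 3 libraries were pooled at reverse transcription, so group and pool cannot be told apart (n = 3 dishes throughout).

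Cytochrome c oxidase, complex IV of the mitochondrial respiratory chain, passes electrons from cytochrome c to oxygen. Its catalytic core is made in the mitochondrion and must receive haem A and copper before the nuclear-encoded subunits can be added around it. The assembly factors are not part of the finished enzyme: they make or insert these cofactors and hold the newly made core subunits, and inherited loss of several of them is known to cause complex IV deficiency. SCO2 is also known as a target gene of p53. The study asked whether mutant p53 alters translation and looked at mitochondrial transcripts as a set, and the comparisons below place these 9 genes in that setting.

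Libraries held 18.7 to 24.6 M counts, and a member had between 198 and 2336 counts in a library. MDM2 and CDKN1A, classical p53 targets that report on the constructs, averaged 860 and 61.1 CPM (counts scaled to a common library total) in WT, 76.8 and 16.1 CPM in G245S, and 76.7 and 13.9 CPM in R273H. The epithelial keratins KRT8 (32.6 to 44.8 CPM) and KRT18 (107 to 122 CPM) were present in every dish, CDH1 and EPCAM were low (at most 8.63 CPM), the blood, endothelial and liver markers PTPRC, PECAM1 and ALB were at 0.160 CPM or below, and of the fibroblast markers COL1A1 reached 34.2 CPM while DCN stayed at or under 0.416 CPM.

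The 2 shortest members carried the largest decreases, and their coding regions are shown because length and sequence shared with other genes bear on their counts. COX14 and COX17 have coding regions of 171 and 189 nt without the stop codon. Of 10886 protein-coding genes averaging 100 counts or more, only 0.312% and 0.459% were shorter. The sequences are those of the Ensembl canonical transcripts in GENCODE v44 (GRCh38), read 5′ to 3′ on the gene's strand, for COX14 at chr12:50112082-50120457 on the plus strand and COX17 at chr3:119654513-119677454 on the minus strand. Capitals mark bases that lie in a 28-base stretch, about the length of a footprint, found unchanged in a transcript of another gene.
COX14: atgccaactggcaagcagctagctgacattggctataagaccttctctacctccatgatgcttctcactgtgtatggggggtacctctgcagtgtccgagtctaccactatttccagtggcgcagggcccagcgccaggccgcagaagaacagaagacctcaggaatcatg
COX17: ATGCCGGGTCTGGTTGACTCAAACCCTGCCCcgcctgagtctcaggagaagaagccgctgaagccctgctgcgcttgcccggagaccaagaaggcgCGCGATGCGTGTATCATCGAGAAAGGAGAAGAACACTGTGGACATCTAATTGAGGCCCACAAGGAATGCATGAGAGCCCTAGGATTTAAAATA
COX14 had no such base. In COX17, 124 of the 189 bases were shared, all through the processed pseudogene COX17P1, to which the deposited table gave only 2.00 to 13.3 counts a library against 1541 to 2139 for COX17.

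In WT cells, footprint CPM per kb of coding region ordered the members over a wide range. COX17, the copper chaperone that feeds the other copper factors, was highest at 514 CPM per kb, followed by COX14 at 301, SCO2 at 112, SCO1 at 78.7 and COX11 at 67.0. COX15 (36.4) and COX20 (35.6) were next, and only these neighbours overlapped between their dishes. SURF1 (13.0) and COX10 (7.80), both factors of the haem A branch, were lowest. The positions of COX15 and COX20 depend on how reads shared with other genes were divided, which was not tested. In WT, ENSG00000285932, which shares most of the COX15 coding sequence, averaged 49.2 CPM against 44.8 for COX15. The pseudogene COX20P1 averaged 137 counts a library in WT, against 233 to 256 for COX20. COX17 and COX14, at the top, have the shortest coding regions of the members, at 189 and 171 nt. Summed over the 9 genes, footprints came to 443.7 ± 3.18 CPM in WT (SD, n = 3), 443.2 ± 12.5 in G245S and 445.1 ± 4.11 in R273H, so the 3 means differed by less than the SD of the G245S dishes.

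In G245S against WT, 4 of the 9 members were called (edgeR quasi-likelihood test, Benjamini-Hochberg adjusted p under 0.05 over all genes tested), where 24.7% of all genes tested were. The genes above WT were SCO1 and SCO2 and those below it COX14 and COX17, beside 12.6% of all genes called higher and 12.1% lower. The R273H comparison with WT also called 4, where 28.8% of all genes were. Here SCO1 and COX15 were above WT and COX14 and COX17 below, beside 14.2% and 14.6% of all genes. The members' median log2 fold changes were -0.023 and -0.050, beside -0.00069 and -0.0024 over all genes tested. No fold change of a member passed 1.2-fold in either mutant. In a test against that fold none was called, where 547 of 19820 genes were in G245S and 693 in R273H. Both comparisons use the same 3 WT dishes, so they are not independent of each other.

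**Figure D1:**
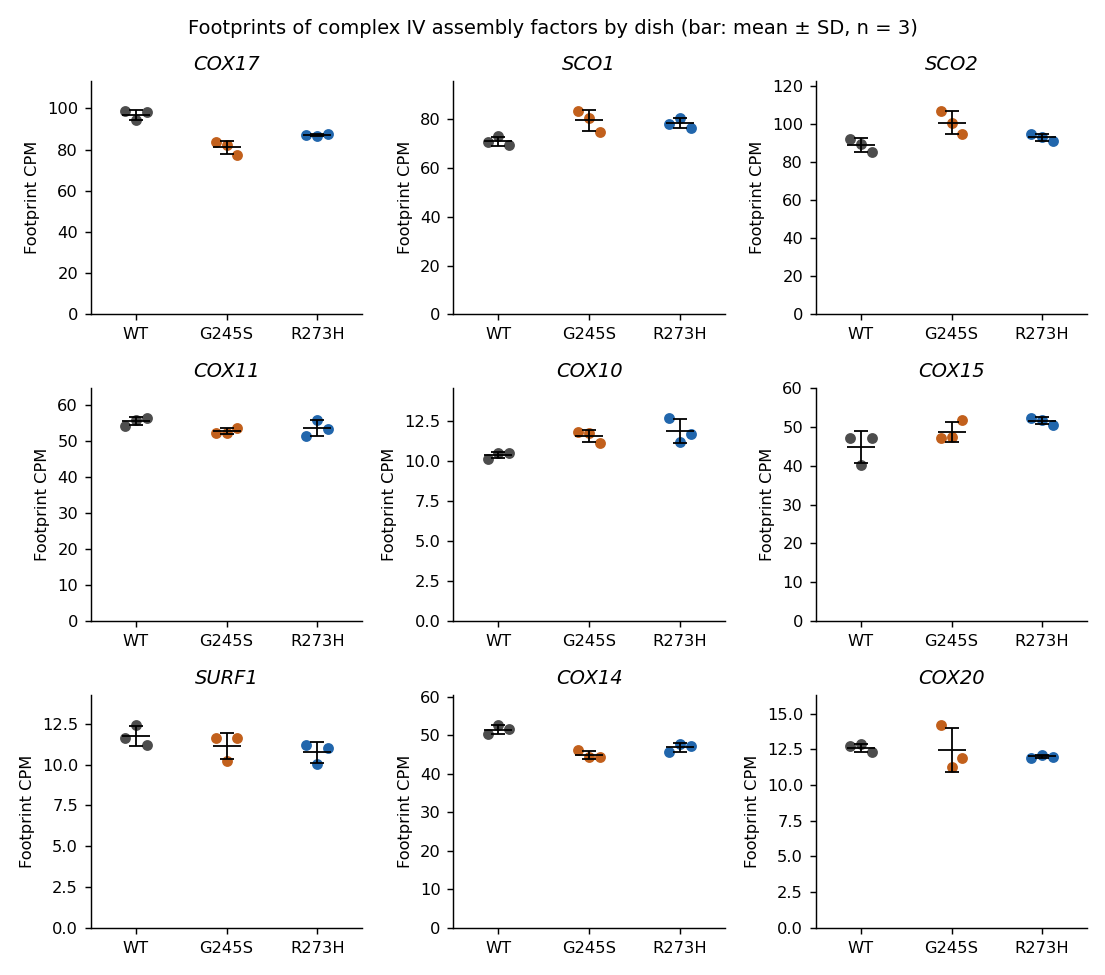
Footprint CPM (y axis, from 0) of each member in the 3 dishes of WT, G245S and R273H; points are dishes and bars the mean ± SD. The G245S and R273H points of COX17 and COX14 all sit below the WT points, those of SCO1 all above them, and in SCO2 all 3 G245S points lie above the WT range while the lowest R273H point, at 91.3, lies inside it.

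The copper branch moved in both directions. COX17 carries copper in the intermembrane space and hands it to SCO1 and SCO2, which load the copper centre of the MT-CO2 subunit, and to COX11, which serves the copper site of MT-CO1. COX17 had 98.5, 94.3 and 98.4 CPM in the WT dishes, 83.5, 82.3 and 77.6 in G245S, and 86.9, 86.5 and 87.4 in R273H. The 3 groups did not overlap, with WT highest and G245S lowest. In log2 terms COX17 fell by 0.26 in G245S (SE 0.0366, adjusted p = 3.7e-06), and the R273H change was -0.16 (SE 0.0354, adjusted p = 0.00105). Between the mutants, COX17 was lower in G245S by a log2 difference of -0.10 (95% interval -0.18 to -0.027, adjusted p = 0.145), which did not pass the test.

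SCO1 had 70.5, 73.1 and 69.5 CPM in WT, 83.2, 80.5 and 74.9 in G245S, and 78.2, 80.5 and 76.3 in R273H. Every mutant dish was above every WT dish, while the mutants overlapped. On the log2 scale the G245S rise was 0.16 (SE 0.0414, adjusted p = 0.00457) and the R273H rise 0.14 (SE 0.0405, adjusted p = 0.00875); without R273H dish 2 the latter value was 0.12 and missed the threshold (adjusted p = 0.0565).

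SCO2 had 92.2, 89.8 and 85.4 CPM in WT, 107, 101 and 95.03 in G245S, and 94.98, 93.5 and 91.3 in R273H. The G245S dishes lay above all WT dishes, and the R273H dishes overlapped the WT range. SCO2 rose in G245S (log2 fold change 0.18, SE 0.0403, adjusted p = 0.0017), and its value in R273H was 0.065 (95% interval -0.017 to 0.15, adjusted p = 0.241). The difference between the mutants was 0.11 (95% interval 0.031 to 0.19), with non-overlapping dishes, but its adjusted p was 0.137. SCO1 and SCO2 are paralogs, and their proteins were identical at 47.2% of 246 aligned residues. Only 1.37% of the 28-base stretches of SCO1 and none of SCO2 occurred in another gene's transcript, so footprints of the paralogs differ in sequence nearly throughout. The SCO2 to SCO1 footprint ratio, which does not depend on library scaling, was 1.25 ± 0.0454 in WT, 1.27 ± 0.0161 in G245S and 1.19 ± 0.0272 in R273H. The log2 ratio differed from WT by 0.016 in G245S (exact permutation test, two-sided, p = 0.6) and by -0.076 in R273H (p = 0.1, exact permutation, the smallest value that 3 dishes against 3 allow).

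COX11 had 54.2, 55.9 and 56.3 CPM in WT, 52.1, 52.3 and 53.6 in G245S, and 51.4, 55.8 and 53.4 in R273H. The G245S dishes were just below the WT dishes, and those of R273H overlapped them. The G245S change on the log2 scale, -0.073 (95% interval -0.16 to 0.016, adjusted p = 0.24), and the R273H change, -0.050 (95% interval -0.14 to 0.037, adjusted p = 0.416), did not pass.

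**Figure D2:**
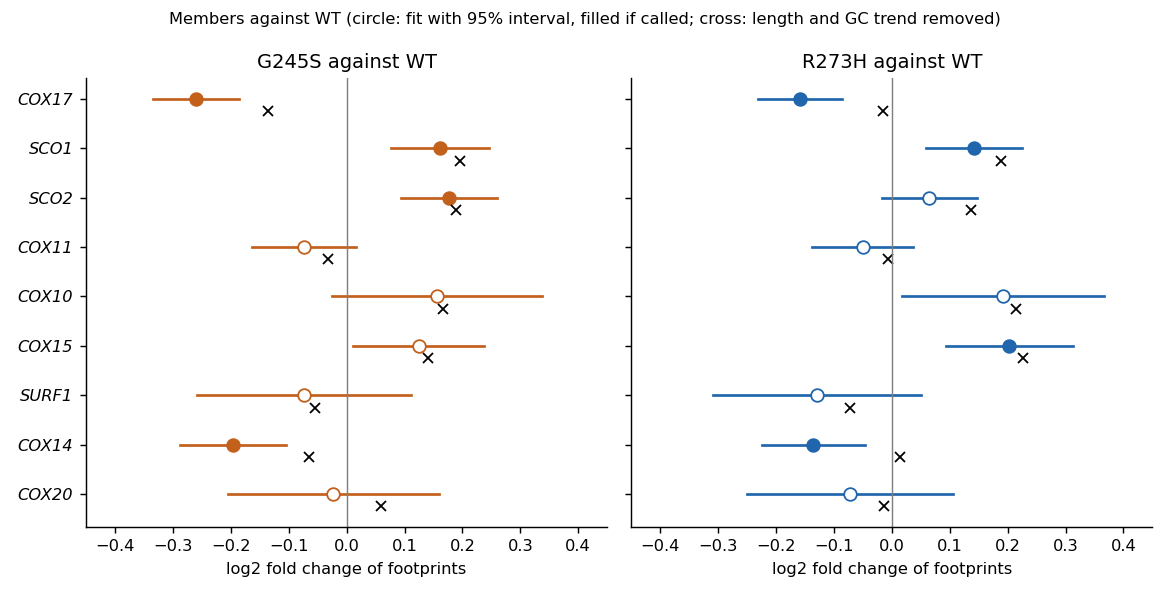
The log2 fold change of footprints (x axis) of each member in G245S and in R273H against WT; circles with lines are the fit and its 95% interval, filled where the adjusted p was under 0.05, and crosses the value after a trend over coding length and GC content was removed from each library. The circles of COX17 and COX14 lie to the left of 0 in both panels, and their crosses lie nearer to 0, at 0.014 for COX14 in R273H.

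The haem A branch had calls in COX15 alone, and in R273H. COX10 attaches a farnesyl chain to haem B, COX15 carries out the next step to haem A, and SURF1 helps place haem A in MT-CO1. COX15 had 47.2, 40.1 and 47.1 CPM in WT, 47.2, 47.5 and 51.7 in G245S, and 52.3, 51.9 and 50.6 in R273H. WT dish 2 was low, the R273H dishes were above all WT dishes, and G245S overlapped WT. COX15 rose by 0.20 on the log2 scale in R273H (SE 0.0533, adjusted p = 0.00503), and its G245S value of 0.12 (SE 0.0551, adjusted p = 0.102) did not pass. Without WT dish 2, the R273H value was 0.13 and was not called (adjusted p = 0.0723), and the G245S value was 0.052. Without WT dish 3, the G245S value was 0.16 and was called (adjusted p = 0.0465).

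COX15 shares 80.2% of its 28-base stretches with ENSG00000285932, a protein-coding gene annotated on the same strand over the COX15 locus (COX15 at chr10:99710868-99732127, GRCh38), so that reads from most of the COX15 coding region could belong to either. That gene had 48.6, 52.8 and 46.3 CPM in WT, 47.6, 44.95 and 45.3 in G245S, and 41.0, 48.1 and 43.0 in R273H, and changed by -0.10 (G245S, adjusted p = 0.216) and -0.16 (R273H, adjusted p = 0.0317) on the log2 scale. WT dish 2, the lowest dish for COX15, was the highest for this gene. The sum of both was 94.0 ± 1.56 CPM in WT, 94.8 ± 2.28 in G245S and 95.6 ± 3.79 in R273H. Tested as a sum, COX15 had log2 values of 0.011 for G245S (adjusted p = 0.863) and 0.024 for R273H (adjusted p = 0.666), so the call in R273H did not hold. CUTC, on the opposite strand of the locus, was called higher in both mutants (0.16 and 0.14 on the log2 scale). In DESeq2 neither the CUTC calls (adjusted p = 0.0718 and 0.109) nor that of ENSG00000285932 in R273H (adjusted p = 0.111) held. Whether reads were assigned by strand is not stated in the sources used here.

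**Figure D3:**
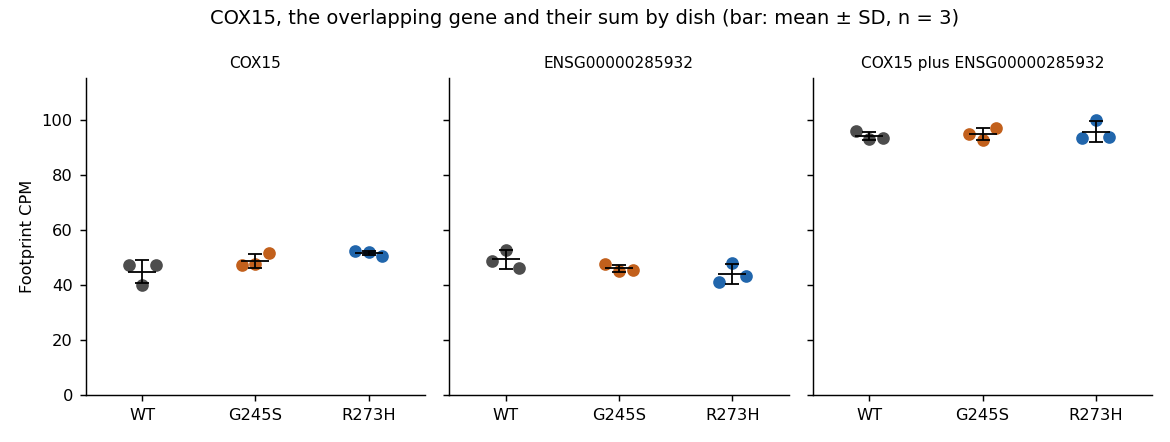
Footprint CPM (y axis, from 0) of COX15, of the overlapping gene ENSG00000285932 and of their sum, in the 3 dishes of each group with mean ± SD bars. The mean of COX15 increases from 44.8 in WT to 51.6 in R273H, that of the overlapping gene decreases from 49.2 to 44.01, and the sums lie at 94.0, 94.8 and 95.6.

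COX10 had 10.1, 10.5 and 10.5 CPM in WT, 11.8, 11.7 and 11.1 in G245S, and 12.7, 11.2 and 11.7 in R273H. All mutant dishes were above all WT dishes, but with 198 to 311 counts a library the intervals were wide. Its log2 fold changes, 0.16 (95% interval -0.024 to 0.34, adjusted p = 0.21) and 0.19 (95% interval 0.017 to 0.37, adjusted p = 0.0936), were not called. SURF1 had 11.6, 12.4 and 11.2 CPM in WT, 11.6, 10.2 and 11.6 in G245S, and 11.2, 10.03 and 11 in R273H. The R273H dishes fell just under the WT range and the G245S dishes overlapped it. On the log2 scale R273H stood at -0.13 (95% interval -0.31 to 0.051, adjusted p = 0.294) and G245S at -0.074 (95% interval -0.26 to 0.11, adjusted p = 0.606).

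Of the factors that hold newly made core subunits, COX14 was called and COX20 was not. COX14 binds MT-CO1 while it is being made and couples its synthesis to assembly, and COX20 stabilises MT-CO2 before copper is inserted. COX14 had 50.2, 52.7 and 51.6 CPM in WT, 46.1, 44.5 and 44.3 in G245S, and 45.6, 47.7 and 47.3 in R273H. All 6 mutant dishes lay below the WT dishes. It fell by 0.20 on the log2 scale (SE 0.0447, adjusted p = 0.00158) in G245S, and its value in R273H was -0.14 (SE 0.0432, adjusted p = 0.0188). The R273H call was lost without WT dish 2 (adjusted p = 0.0836) or R273H dish 1 (adjusted p = 0.0915) and in DESeq2's Wald test (adjusted p = 0.118). With a coding length and GC trend removed, described further on, both calls were lost, at -0.065 in G245S and 0.014 in R273H.

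COX20 had 12.7, 12.8 and 12.3 CPM in WT, 14.2, 11.3 and 11.9 in G245S, and 11.9, 12.1 and 11.99 in R273H. The G245S dishes spread across the WT range and the R273H dishes were just below it. The log2 fold changes were -0.023 (95% interval -0.21 to 0.16, adjusted p = 0.889) and -0.072 (95% interval -0.25 to 0.11, adjusted p = 0.584). In COX20, 84.7% of all 28-base stretches also occurred in other transcripts and 70.0% of all in the pseudogene COX20P1, which received 130 to 175 counts a library against 222 to 299 for COX20; its level is therefore uncertain.

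Counting dishes that do not overlap between groups, 6 of 9 members were clear of WT in G245S (SCO1, SCO2, COX10, COX11, COX14 and COX17), where 37.4% of all genes tested were. For R273H the count was 7 (SCO1, SURF1, COX10, COX14, COX15, COX17 and COX20), where 41.2% of all genes were. In the direct comparison of G245S with R273H, none of the 9 was called, where 2.59% of all genes were (1.86% higher in G245S and 0.732% lower). At an unadjusted p under 0.05, SCO2 (0.00818) and COX17 (0.00923) passed in that edgeR comparison, DESeq2 called none of the 6 to which it gave an adjusted p, and the same 2 genes had non-overlapping dishes, where 21.5% of all genes did. With dish number as a replicate block, SCO2 was called between the mutants (0.11, adjusted p = 0.0154), where 1262 of 19820 genes were. Without G245S dish 3 it was called as well (0.16, adjusted p = 0.0235), and dish 3 had the lowest SCO2 level in each group. With the coding length and GC trend removed, described below, SCO2 was not called between the mutants, with or without the block. That trend put SCO2 at 0.060 in this comparison, and its smallest value over the alternatives run was 0.052. The COX15 difference between the mutants was not called (-0.078, 95% interval -0.19 to 0.030, adjusted p = 0.505).

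Coding length moved with the group across protein-coding genes averaging 100 counts or more, and the 2 members that fell are among the shortest. Over 10886 genes, the rank correlation of a library's deviation with coding length was -0.18 to -0.14 in the WT dishes, -0.011 to 0.12 in G245S and 0.14 to 0.19 in R273H, given as a description of libraries. With coding GC content it was -0.18 to 0.26 in WT, -0.18 to 0.34 in G245S and -0.42 to -0.14 in R273H, and so varied within groups too. SCO2 had the highest coding GC content of the members, at 63.2%. Of the 1104 genes in the shortest of 10 length bins (27 to 516 nt, with COX14, COX17 and COX20 in it), the G245S median stood at -0.067 on the log2 scale with 31.2% of genes called lower, and the R273H median at -0.089 with 40.4% called lower. After a per-library trend over coding length and GC content was removed, COX17 kept a log2 value of -0.14 in the G245S comparison (adjusted p = 0.00121) but was at -0.014 in that of R273H (adjusted p = 0.763). The values of COX14 after this step had adjusted p of 0.268 (G245S) and 0.84 (R273H). For G245S the members called became 2 above WT and 1 below, and for R273H 3 above and 0 below, since SCO2 joined SCO1 and COX15 (0.14, adjusted p = 0.000746). Of all 19820 genes tested, 5431 were called in G245S and 5942 in R273H after this step. The same step put COX17 past the threshold between the mutants (-0.12, adjusted p = 0.0277). The part of length in the decreases of COX14 and COX17 was not tested beyond this.

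**Figure D4:**
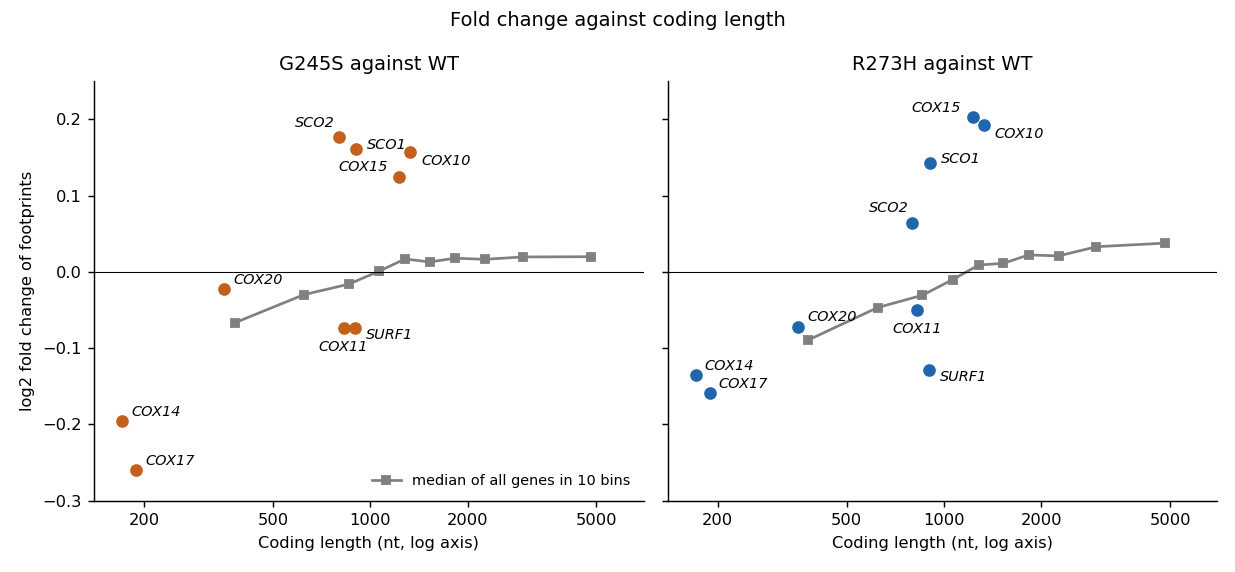
The log2 fold change of footprints (y axis) against coding length in nt (x axis, log scale), for G245S and R273H against WT. Labelled points are the 9 members. Grey squares are medians of protein-coding genes averaging 100 counts or more, in 10 bins of coding length. The grey line starts at -0.067 and -0.089 in the shortest bin, COX14 and COX17 lie further down at its short end, and SCO1, SCO2, COX10 and COX15 lie above it in both panels.

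Other factors of complex IV assembly, 23 genes taken as a list, had 3 calls above WT and 8 below it in G245S (median log2 fold change -0.064), and 2 above and 7 below in R273H (median -0.048), with none called between the mutants. The shares of all genes called higher and lower were 12.6% and 12.1% in G245S and 14.2% and 14.6% in R273H. Of those called in both mutants, LRPPRC, which stabilises mitochondrial mRNAs, had 431 to 465 CPM in WT, 543 to 580 in G245S and 567 to 586 in R273H, a rise of 0.33 and 0.38 on the log2 scale (adjusted p = 1e-08 and 6e-10). The membrane insertase OXA1L rose by 0.14 and 0.13. FDXR, the reductase of the mitochondrial ferredoxins that serve haem A synthesis, was lowest, at 99.3 ± 3.02 CPM in WT, 12.1 ± 0.566 in G245S and 10.1 ± 0.936 in R273H (log2 fold changes -3.04 and -3.30). The short factors COA3 (-0.22 and -0.28), SMIM20 (-0.25 and -0.30), COA5 (-0.23 in both) and PET100 (-0.20 and -0.26), with 201 to 318 nt of coding region, and the ferredoxin FDX2 (-0.22 and -0.27, 549 nt) fell in both. DESeq2 lost the calls of SMIM20 (adjusted p = 0.133 in G245S, 0.0564 in R273H), COA5 (0.0526 and 0.0531) and, in G245S, FDX2 (0.134). The G245S and WT dishes of FDX2 overlapped, and its G245S value was -0.13 (adjusted p = 0.254) without G245S dish 3, -0.16 (adjusted p = 0.162) without WT dish 3, and also missed the threshold without WT dish 1 (adjusted p = 0.0625) or G245S dish 1 (adjusted p = 0.0519). Named after their values were seen, COX16 (-0.15), CMC1 (-0.14) and TMEM177 (0.15) were called in G245S and COA1 (-0.13) in R273H. In DESeq2 the list had 2 calls above WT and 4 below in each mutant. The calls of TMEM177 and COA1 were not among them, and those of COX16 and CMC1 did not both hold. With the length and GC trend removed, G245S had 4 calls above WT and 2 below, and R273H 5 above and 3 below.

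**Figure D5:**
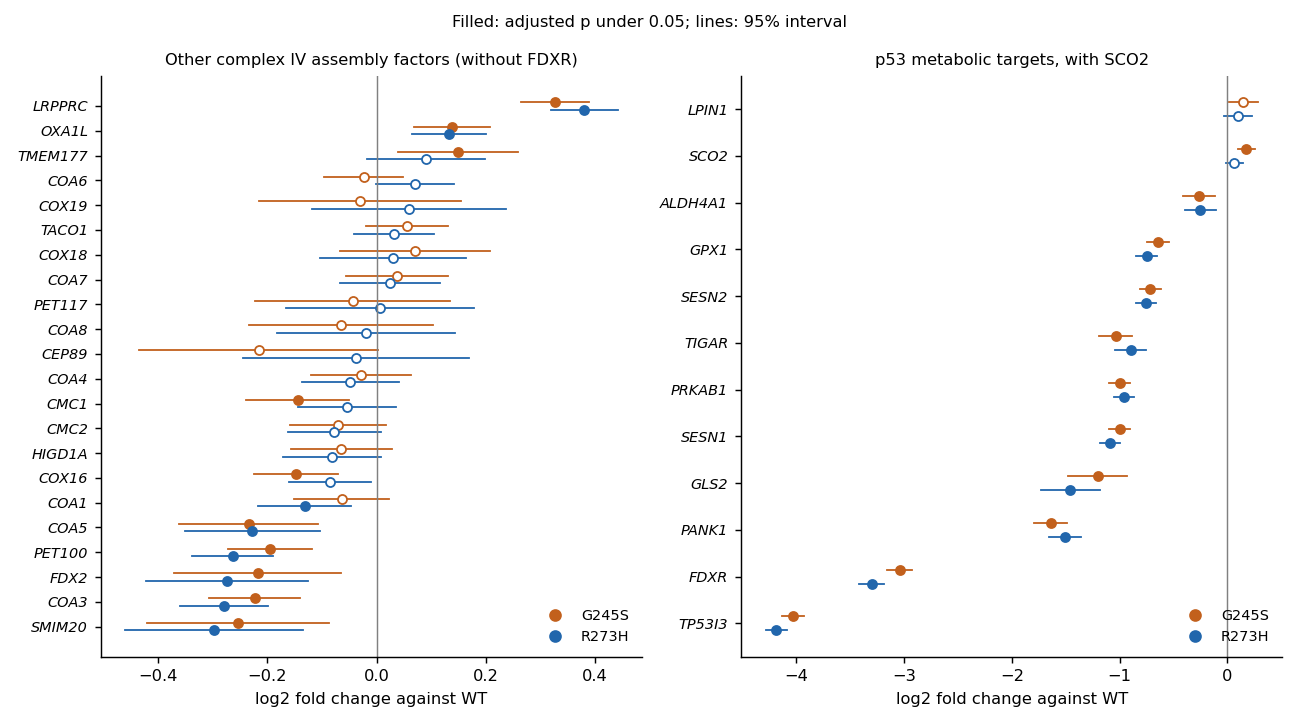
The log2 fold change of footprints against WT (x axis) of 22 other complex IV assembly factors (left, without FDXR) and of the p53 metabolic targets with SCO2 (right), with 95% intervals and filled circles where the adjusted p was under 0.05, in G245S (orange) and R273H (blue). On the right, SCO2 sits at 0.18 and 0.065, while 10 of the 11 other genes lie below 0, down to TP53I3 at -4.03 and -4.19.

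The genes that make or carry the cofactors outside complex IV are given by genes named after their values were seen. Of 7 copper genes, SLC25A3, the mitochondrial phosphate and copper carrier, rose in both mutants (0.10 and 0.099), and the chaperone ATOX1 fell in G245S (-0.15). The copper exporter ATP7A had a log2 value of 0.13 in R273H (adjusted p = 0.0446), which missed the threshold in DESeq2 (adjusted p = 0.155) and without WT dish 1 or 2, G245S dish 2 or any R273H dish (adjusted p up to 0.192). Among haem synthesis enzymes, ALAS1, which starts the pathway, rose in both (0.15 and 0.18), PPOX had a log2 value of 0.19 in G245S (adjusted p = 0.0467), and FECH, which inserts the iron, fell in R273H (-0.17). DESeq2 called neither PPOX (adjusted p = 0.182) nor FECH (adjusted p = 0.0609), and PPOX also missed the threshold without any 1 of 7 dishes in turn (all but G245S dish 3 and R273H dish 3). Among assembly factors of other complexes, 2 of 14 for complex I (NDUFAF2 and TMEM126B) were called higher in G245S and 2 lower (NDUFAF6 and NDUFAF8), and R273H had the same calls with NDUFAF5 added among the higher, beside 12.6% and 12.1% of all genes called higher and lower in G245S and 14.2% and 14.6% in R273H. In DESeq2 only TMEM126B of the 3 higher R273H calls held. For complex III, BCS1L was called higher and UQCC2 lower in each mutant, with TTC19 higher in G245S and UQCC1 in R273H, out of 6 genes; in DESeq2 the 2 higher R273H calls became 1. Of 4 ATP synthase factors, TMEM70 was called higher and FMC1 lower in each mutant and ATPAF2 lower in G245S, where the 2 lower calls became 1 in DESeq2, and TMEM70 was lower in G245S than in R273H (-0.13, adjusted p = 0.0487).

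The 3 mitochondrially encoded subunits on which the members act were called lower in R273H, where 14.6% of all genes were. In G245S their calls depended on the fit. Against a 1.2-fold change none of these subunits was called in either mutant. MT-CO1 had 666, 664 and 678 CPM in WT, 652, 645 and 630 in G245S, and 596, 586 and 606 in R273H. The 3 groups did not overlap. MT-CO1 was at a log2 change of -0.17 in R273H (adjusted p = 2.2e-06), with -0.18 for MT-CO2 (adjusted p = 6.6e-05) and -0.098 for MT-CO3 (adjusted p = 0.00527). The G245S values were -0.059, -0.079 and 0.0072; that of MT-CO1 missed the threshold (adjusted p = 0.0631) but passed in DESeq2 (adjusted p = 0.0499), with the replicate block (adjusted p = 0.0143) and with the length and GC trend removed (adjusted p = 0.0291). MT-CO2 in G245S (adjusted p = 0.0631) passed with the block (adjusted p = 0.00941) and without WT dish 1 (adjusted p = 0.0386). MT-CO1 and MT-CO3 were higher in G245S than in R273H by 0.11 and 0.10 (adjusted p = 0.00763 and 0.0243), and MT-CO2 by 0.099 (adjusted p = 0.0899). These subunits are translated by mitochondrial ribosomes, which cycloheximide does not stop. The study collected monosome fractions from a sucrose gradient after nuclease digestion, and whether these reads come from mitochondrial ribosomes was not tested.

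SCO2 was set beside 11 other metabolic genes known as p53 targets. Of these, 10 were called lower and none higher in each mutant, beside 12.1% of all genes called lower in G245S and 14.6% in R273H. The medians were -1 and -0.96 on the log2 scale. This list was chosen with earlier results of these data known. TP53I3, an oxidoreductase, was lowest (-4.03 and -4.19) and FDXR, which is in both lists, was next. Also lower were PANK1, the coenzyme A synthesis kinase (-1.64 and -1.51), the glutaminase GLS2 (-1.21 and -1.46) and the stress sensor SESN1 (-0.9997 and -1.09). LPIN1 was not called (0.15 and 0.097). SCO2 was not lower than WT in any G245S dish, and its 95% interval in R273H reached down to -0.017.

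The genes whose log2 CPM followed SCO2 most closely over the 9 dishes, among 12655 genes averaging 100 counts or more, were GANAB (Pearson r = 0.99), PITPNM1 (0.98), EBP (0.98), FARSA (0.97) and PDLIM7 (0.97). For COX17 they were HEY1 (0.99), ZC3H10 (0.99), GOLGA3 (0.98), DECR1 (0.98) and PLAAT3 (0.97). These are descriptions over libraries that share pools, and are the highest of many values. Several members overlap other genes on the map. TOM1L1, opposite to COX11, was called lower in both mutants (-0.33 and -0.21), and NCAPH2, opposite to SCO2, had log2 values of 0.099 (adjusted p = 0.0563) and -0.023, without a call; TYMP, on the strand of SCO2, had 1.75 to 2.22 CPM on average in the groups. The part of reads from these neighbours in the counts of COX11 and SCO2 was not tested.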

How the data were processed

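Ribo-seq libraries of HEK293T cells with a WT, G245S or R273H p53 construct were analysed, 3 dishes a group, with groups taken from the sample titles. The authors removed adapters with Trim Galore and cutadapt and aligned reads to GRCh38 with STAR; UMI-tools, SAMtools, FastQC and MultiQC are also named in the submitters' processing notes. The deposited table holds expected counts (estimated counts per gene, not scaled); the counting tool, annotation release and use of strand are not given in the sources used here. Between 61.5% and 63.7% of nonzero values were not whole, so reads matching several genes may have been divided between them, which was not tested.

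Rounded expected counts entered edgeR 4.0.16 under R 4.3.3 (TMM, factors 0.987 to 1.01; filterByExpr; robust glmQLFit; glmQLFTest, two-sided) in a single fit of the 9 libraries with group as the only term, leaving 6 residual degrees of freedom. Adjusted p-values are Benjamini-Hochberg over 19820 genes, and SE and 95% intervals come from the fit. The p-values measure spread between dishes, which carried no variation added after pooling. A change is read against the rest of its library. Depth was 18.7 to 24.6 M counts. CPM uses TMM-scaled totals, except for the cell type markers (keratins to ALB and DCN), which use library totals without TMM factors. Annotation was GENCODE v44, matched by identifier for 62666 of 63241 genes. The fit was tested on simulated data.

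Alternatives were RLE and upper-quartile factors, no filter, DESeq2 1.42.0, a test against 1.2-fold, only the 6 libraries compared, each dish left out, a dish-number block, a coding length and GC trend fitted per library over 10886 genes and removed, and, added after seeing the data, members summed with genes sharing sequence. Named genes were the 9 members, up to 8 other assembly factors called in both mutants in the same direction with the largest changes, up to 5 p53 metabolic targets called in both, the 5 genes most like SCO2 and COX17, genes overlapping a member, the MT-CO genes, MDM2 and CDKN1A. One gene of the lists is not reported here. The members and lists were chosen with earlier results of these data known. Same-numbered dishes correlated at 0.042 to 0.23 over 12656 genes, and dishes with different numbers at -0.18 to 0.058. As the same-numbered values were not above 0.1 in every pair, the main fit did not pair dishes by number. The block called 5779 genes in G245S, 6547 in R273H and 1262 between mutants, beside 4900, 5707 and 513 in the main fit. A shared effect of dish number was not tested beyond the block.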

Additional observations from a re-analysis of the deposited data

How the results depend on the processing

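The SCO1, SCO2 and COX17 calls in G245S held under every alternative run apart from the test against 1.2-fold, with adjusted p of at most 0.0385, 0.0203 and 0.00121. Members called numbered 4 in each mutant against WT and 0 between mutants. Against 1.2-fold they were 0 and 0 of 9, where 547 and 693 of 19820 genes were called in G245S and R273H. With a dish left out they ranged from 4 to 5 (COX15 added, without WT dish 3) in G245S, from 2 (without WT dish 2) to 4 in R273H, and from 0 to 1 between mutants (SCO2, without G245S dish 3, adjusted p = 0.0235). Between mutants 1 was called with the replicate block (SCO2, adjusted p = 0.0154), 1 with the length and GC trend removed (COX17), and 1 with both (COX17, while SCO2 was not called). The block also called MT-CO1 and MT-CO2 in G245S and changed no other member's call; with the trend also removed it added COX15 in G245S (adjusted p = 0.0318) and COX10 in R273H (adjusted p = 0.0475). DESeq2 and no filter each gave 3 called in R273H, without COX14 (adjusted p = 0.118 and 0.0602). Reversed values were not called: COX20 in G245S at 0.059 (trend removed), 0.061 (block and trend) and 0.0045 (summed with COX20P1 and other copies), and COX14 in R273H at 0.014 (trend removed) and 0.013 (block and trend). With a dish left out, COX20 in G245S ranged from -0.12 to 0.042 and MT-CO3 from -0.013 to 0.027, NCAPH2 in R273H from -0.045 to 0.000581, and, between mutants, SCO1 from -0.012 to 0.065, COX10 from -0.076 to 0.016, COX11 from -0.052 to 0.0084 and COX20 from -0.049 to 0.11. The causes were not tested. DESeq2 called 6 of the 23 other assembly factors in G245S against 11 in edgeR. SURF1, COX10 and COX20, with 198 to 311 counts a library, had SE of at least 0.083 on the log2 scale in each comparison.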
